A study of Mus musculus with 7 samples.

Results

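The CXC chemokine ligands examined here are 8 genes of 28666 in the expression table of flow-sorted bone marrow-derived dendritic cells (BMDCs), namely Cxcl1, Cxcl2, Cxcl3, Cxcl5, Cxcl9, Cxcl10, Cxcl14 and Cxcl16. They were chosen by gene name and matched 1 row each. All 8 passed the filter on low counts. Bone marrow of female C57BL/6 mice, 6 to 8 weeks old, was differentiated with GM-CSF and IL-4 for 7 days, and the cells were co-cultured across a Transwell membrane with MC38, a mouse colon carcinoma line. By the study's text, the cells were sorted after 24 h of DON, a glutamine antagonist used at 5 µM, into immature BMDCs (3 libraries) and mature BMDCs (4 libraries). A legend of the study names DMSO or DON for this sort and the labels do not give the treatment of each library, so a DON exposure shared by all 7 libraries is not certain. Elsewhere in the study, mature dendritic cells were defined by surface CD80 and CD86, but the gate of this sort was not given in the sources used here. Poly(A) RNA was sequenced in bulk.

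CXC chemokines are small secreted proteins that steer leukocytes through G protein-coupled receptors. Cxcl1, Cxcl2, Cxcl3 and Cxcl5 carry the ELR motif before their first cysteines, bind Cxcr2 and recruit neutrophils. Cxcl9 and Cxcl10 are interferon-inducible ligands of Cxcr3 that recruit effector T cells. Cxcl14 is a constitutively made chemokine of epithelia and some myeloid cells, and Cxcl16 is a transmembrane ligand of Cxcr6 that Adam10 can cut from the surface. Dendritic cells are known to make several of them while they mature.

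Totals were 54846746 to 67973086 counts per library. Reads copied from one molecule were counted separately, so depth bears on counting error only. Mature replicate 3 stood apart from its group, with a median chi-square per gene of 17.7 to 25.6 against the other mature libraries, where these differed from each other by 4.26 to 5.27 and sampling noise gives 0.455. The 10 dendritic cell markers were all detected above 1 FPKM in at least 1 library, and Cd86 rose from 9.04 to 9.89 FPKM in immature cells to 91.5 to 120 FPKM in mature cells. Itgax went the other way, from 240 to 261 FPKM in immature cells to 161 to 227 FPKM in mature cells. H2-Ab1 overlapped between the groups, and the remaining markers lay higher in every mature library. Of the markers of other tissues, 8 heart muscle genes summed to 1.89 to 2.05 FPKM in immature cells, 12.2 in mature replicate 1 and 252 to 269 in mature replicates 2, 3 and 4. In mature replicate 1, 11.2 FPKM of this was Tnni3, and none of the other heart muscle genes exceeded 0.38 FPKM. In mature replicate 2, 6 kidney genes summed to 189 FPKM, against at most 0.13 in every other library. The labels give the libraries replicate numbers without saying that they came from separate cultures or animals, so p-values measure the spread between these samples, which may be technical. The study says in general that its data come from independent biological experiments unless a legend states otherwise, without tying this to these libraries.

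Of the 8 ligands, 1 rose in mature BMDCs (Cxcl16), 2 fell (Cxcl2 and Cxcl14) and 5 did not pass both criteria, a log2 fold change of at least 1 in size and an adjusted p under 0.05 in edgeR's quasi-likelihood test with Benjamini-Hochberg adjustment over 17461 genes. Across all of those genes, 13.2% were called higher, 9.95% lower and 23.1% in either direction. The same 3 ligands were those whose groups did not overlap in CPM, the counts scaled by library size with TMM factors, which held for 52.1% of all genes. Cxcl9 passed the filter on low counts only through the mature libraries. It could thus be called higher or not called, and the counts of ligands called are no test against the shares over all genes. The median log2 fold change, mature over immature, was -0.40 over the 8 ligands and 0.05 over all genes tested. In bulk RNA, fewer cells that make a transcript and less of it per cell cannot be told apart.

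**Figure D1:**
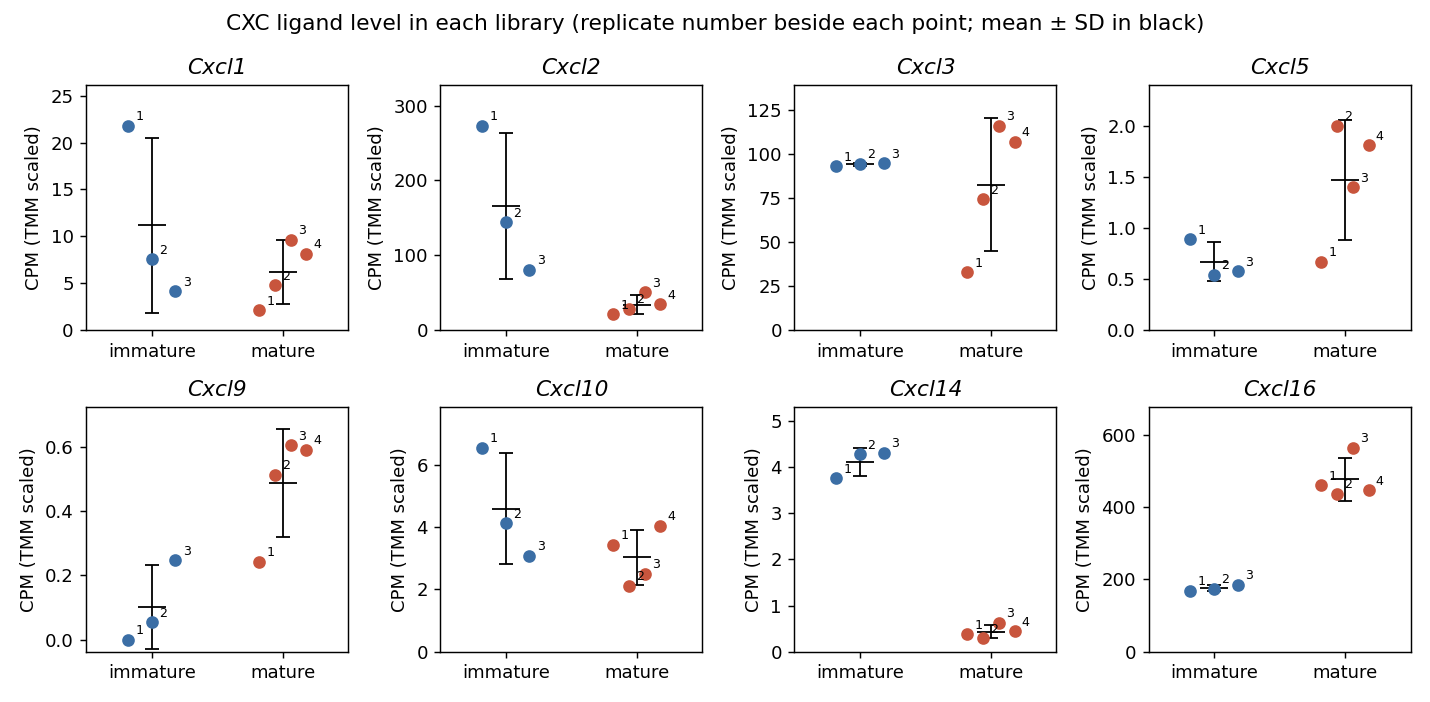
CPM of each ligand (y axis, linear, scaled by TMM) in 3 immature (blue) and 4 mature (red) libraries, with the replicate number beside each point and the mean ± SD in black. Cxcl16 lies between 169 and 185 CPM in immature and between 437 and 565 in mature libraries, Cxcl2 and Cxcl14 lie lower in every mature library, and the other 5 ligands overlap.

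Of the 8 ligands, 6 lie in 2 clusters on chromosome 5. The first spans 147 kb in build GRCm38 and holds, in order, Cxcl5, Ppbp, Pf4, Cxcl3, Cxcl15, the predicted gene Gm43086, Cxcl1 and Cxcl2, all on the plus strand. Cxcl1 occupies chr5:90891241-90893115, Cxcl2 chr5:90903871-90905938 and Cxcl3 chr5:90786103-90789600. The second spans 44 kb on the minus strand and holds Cxcl9 (chr5:92321347-92328079), Cxcl10 (chr5:92346638-92348882) and Cxcl11. Cxcl14 (chr13:56288643-56296551) and Cxcl16 (chr11:70453983-70459984) lie on other chromosomes, both on the minus strand. Cxcl2 and Cxcl3 shared some sequence: 5.84% of the 50-base windows of Cxcl2 transcripts, 126 in number, also occurred in those of Cxcl3 (4.24% of the windows of Cxcl3 occurred in another gene), so that a few of their reads may have been split by the counting. Cxcl1, Cxcl10, Cxcl14 and Cxcl16 shared no such window with another gene.

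The promoters of the neighbouring Cxcl1, Cxcl2 and Cxcl3 are shown because Cxcl2 alone of these 3 genes was called, that of Cxcl10 for its interferon-type motif and that of Cxcl14 as the ligand with the largest fall. They run up to 250 bases upstream of the start in RefSeq's GRCm38.p6, 5′ to 3′ on the gene's strand, with matches to the NF-kappa B consensus (searched on both strands) and to AAANNGAAA, the core of the interferon-stimulated response element, in capitals.
Cxcl1 (chr5:90890995-90891240, plus strand): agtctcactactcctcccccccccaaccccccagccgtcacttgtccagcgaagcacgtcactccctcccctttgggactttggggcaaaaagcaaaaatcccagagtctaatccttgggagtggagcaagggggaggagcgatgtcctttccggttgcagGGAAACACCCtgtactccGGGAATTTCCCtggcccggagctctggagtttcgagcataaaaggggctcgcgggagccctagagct
Cxcl2 (chr5:90903649-90903870, plus strand): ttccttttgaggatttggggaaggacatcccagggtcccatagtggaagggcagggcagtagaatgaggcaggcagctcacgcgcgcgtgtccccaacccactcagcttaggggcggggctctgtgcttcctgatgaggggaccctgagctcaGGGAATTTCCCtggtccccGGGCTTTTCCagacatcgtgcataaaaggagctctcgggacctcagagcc
Cxcl3 (chr5:90785851-90786100, plus strand): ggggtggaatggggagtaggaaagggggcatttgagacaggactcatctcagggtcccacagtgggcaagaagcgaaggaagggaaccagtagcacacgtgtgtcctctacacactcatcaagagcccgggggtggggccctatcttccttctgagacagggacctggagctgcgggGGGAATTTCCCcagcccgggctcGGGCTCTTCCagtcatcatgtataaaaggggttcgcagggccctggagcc
Cxcl10 (chr5:92348890-92349139, minus strand): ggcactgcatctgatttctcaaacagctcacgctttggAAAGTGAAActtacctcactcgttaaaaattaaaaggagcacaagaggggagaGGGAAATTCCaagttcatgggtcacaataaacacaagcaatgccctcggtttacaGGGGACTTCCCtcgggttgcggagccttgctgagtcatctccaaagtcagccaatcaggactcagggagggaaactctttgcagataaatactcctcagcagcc
Cxcl14 (chr13:56296552-56296801, minus strand): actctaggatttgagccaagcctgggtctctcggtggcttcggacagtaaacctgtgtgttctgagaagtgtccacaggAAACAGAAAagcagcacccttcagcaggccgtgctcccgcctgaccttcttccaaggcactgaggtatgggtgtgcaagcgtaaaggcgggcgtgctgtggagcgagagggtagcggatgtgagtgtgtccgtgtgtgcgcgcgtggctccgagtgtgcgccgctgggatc
Distances below are counted from the RefSeq start. Of the bases before it, the last 4 in Cxcl1 and 28 in Cxcl2 lie in an annotated transcript and are not shown. Counted from the end of the printed letters, sites in these 2 genes therefore lie closer by 4 and 28 bases. The stretch GGGAATTTCC occurred in Cxcl1, Cxcl2 and Cxcl3, starting 71, 97 and 73 bases before the RefSeq start. Each of these 3 held a further match closer to the start or farther from it, at 89 bases in Cxcl1, 78 in Cxcl2 and 50 in Cxcl3. Cxcl10 held consensus matches 159 and 104 bases before its start, and Cxcl9 held a match at 130. Overlapping matches shifted by 1 base were not counted apart. Of 32851 promoters in the table, 16.8% held the consensus. AAANNGAAA was found in Cxcl10, 212 bases before the start, and in Cxcl14, at 171, and in 9.37% of all promoters. The promoters of Pf4 and Ppbp held neither motif in this window. Promoters of Cxcl5 and Cxcl16 were not analysed here. A match is a run of letters and was not tested for binding.

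Cxcl2, a neutrophil attractant made early by activated myeloid cells, fell. Its level was 273, 144 and 80.4 CPM in immature replicates 1, 2 and 3, and 20.8, 28.3, 50.4 and 34.4 CPM in mature replicates 1 to 4. Every mature library lay below every immature library, and the immature libraries differed 3.4-fold among themselves. The log2 fold change was -2.31 ± 0.42 (SE, edgeR adjusted p = 0.00194), a mean of 166 ± 98.4 CPM (SD, n = 3) against 33.5 ± 12.6 (SD, n = 4). Without immature replicate 1, the highest, it was -1.76.

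Cxcl1, which shares the receptor of Cxcl2 and lies next to it, did not pass the test. It was at 21.8, 7.58 and 4.14 CPM in immature and 2.09, 4.79, 9.63 and 8.14 CPM in mature cells. The groups overlapped, with immature replicate 1 above all other libraries and mature replicate 1 below them. The log2 fold change was -0.86 ± 0.62 (SE, edgeR adjusted p = 0.291), and its 95% interval of -2.27 to 0.55 includes both no difference and falls of more than 2 on the log2 scale. Its sign rested on immature replicate 1, without which the value was 0.06.

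Cxcl3, the third ELR ligand of this group, was the steadiest in immature cells and among the least steady in mature cells. Immature libraries held 93, 94.4 and 94.8 CPM, a coefficient of variation of 1.03%, and mature libraries 32.8, 74.3, 116 and 107 CPM, one of 45.7%. The mature values ran from below to above the immature ones, and mature replicate 1 was the lowest. The log2 fold change was -0.19 ± 0.35 (SE, edgeR adjusted p = 0.700, 95% interval -1.0 to 0.62). Without mature replicate 1 it was 0.08. With mature replicate 1 as the only mature library it was -1.50, in a fit without any spread between mature libraries.

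Cxcl5, another Cxcr2 ligand, was expressed at a low level. It had 0.886, 0.539 and 0.573 CPM in immature and 0.667, 2.00, 1.40 and 1.81 CPM in mature cells, from 30 to 132 counts. Mature replicates 2, 3 and 4 lay above all immature libraries, and mature replicate 1 lay within them. The log2 fold change of 1.14 ± 0.43 (SE) missed the threshold (edgeR adjusted p = 0.0579). DESeq2 called it (1.16, adjusted p = 0.0329), as did edgeR without mature replicate 1 (1.38, adjusted p = 0.0105), and with mature replicate 1 as the only mature library it was 0.03.

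Mature replicate 1 was thus the lowest mature library for Cxcl1, Cxcl2, Cxcl3, Cxcl5 and Cxcl9. It was also the mature library with the smallest heart muscle sum, 12.2 FPKM (mostly Tnni3) against 252 to 269. Of the 6 fibroblast genes, Col1a2, Dcn, Lum and Pdgfra were lowest there among the mature libraries (Dcn at 0.09 FPKM against 1.31 to 1.36), whereas Col1a1 and Col3a1 were highest there, at 1.16 FPKM against 0.54 to 0.76 and at 1.65 against 0.77 to 1.47. The 6 genes summed to 2.92 FPKM in mature replicate 1 and to 3.55 to 4.33 FPKM in the others. The part of these transcripts in the ligand levels was not tested. For Cxcl2, Cxcl14 and Cxcl16 the log2 fold changes with mature replicate 1 as the only mature library were -2.97, -3.41 and 1.41.

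**Figure D2:**
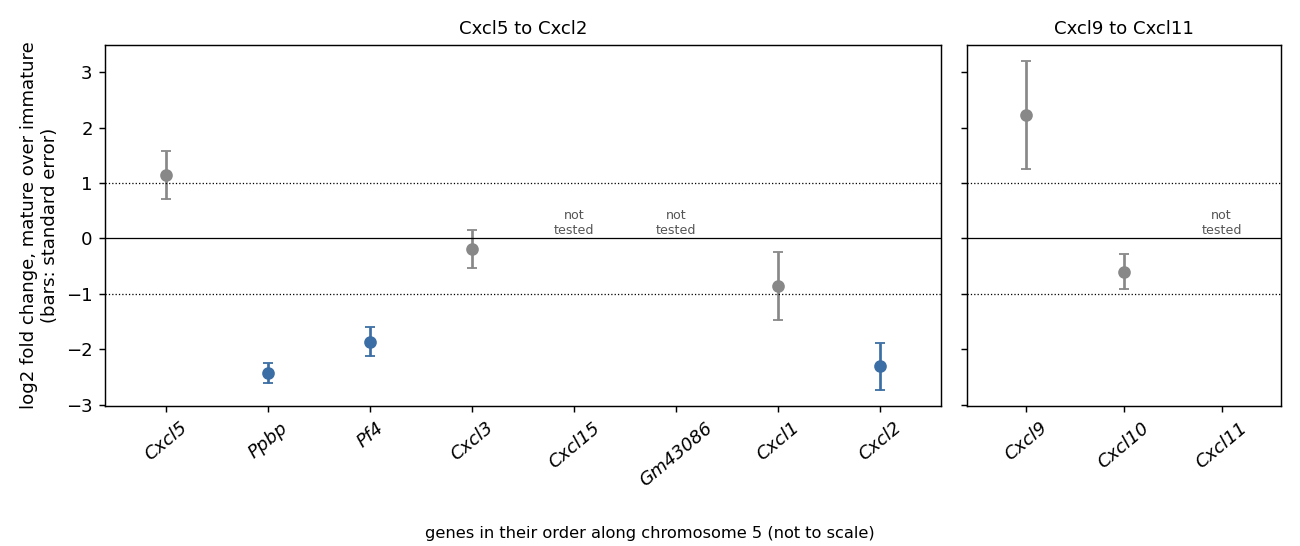
Log2 fold change, mature over immature (y axis, bars are the standard error), of the genes of both chromosome 5 clusters in their order along the chromosome, with blue for called lower, grey for not called and dotted lines at a log2 fold change of 1 in either direction. Ppbp, Pf4 and Cxcl2 lie below -1, while Cxcl3 and Cxcl5 between and beside them were not called.

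The neighbours of these ligands in the first cluster, Ppbp and Pf4, encode platelet chemokines that myeloid cells can also express, and both fell. Ppbp was at 13.2 to 14.2 CPM in immature and 1.96 to 3.31 CPM in mature cells (log2 fold change -2.42 ± 0.18 SE, edgeR adjusted p = 1.1e-05). Pf4 was at 73.7 to 92.0 CPM and 13.1 to 33.0 CPM (-1.86 ± 0.26 SE, edgeR adjusted p = 4.25e-04). Thus 3 of the 6 tested genes of the cluster fell (Ppbp, Pf4, Cxcl2), against 9.95% of all genes, and Cxcl1, Cxcl3 and Cxcl5 did not pass the test, while Cxcl15 and Gm43086 had 0 counts in all 7 libraries.

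The ELR ligands were set against each other within libraries by the log2 ratio of their FPKM, with 0.1 added. Cxcl1 relative to Cxcl2 was -3.50, -4.07 and -4.07 in immature and -3.06, -2.38, -2.22 and -1.91 in mature libraries, so that every mature library had more Cxcl1 per Cxcl2. Cxcl3 relative to Cxcl2 was -2.31, -1.37 and -0.52 in immature and -0.10, 0.63, 0.44 and 0.88 in mature libraries. The differences were 1.49 and 1.86, and both gave p = 0.0571 in a two-sided exact permutation test, the smallest the 35 labelings allow (adjusted p = 0.0857 over 6 ratios). The ratio of Cxcl5 to Cxcl1 differed by 1.56 (exact permutation p = 0.114), with overlap between the groups.

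Immature libraries ranked alike for some inducible genes but not for others. Nfkbiz, an atypical I-kappa B protein and the only gene of the NF-kappa B list below that fell, was at 58.8, 28.2 and 15.1 CPM in immature and 11.9, 13.8, 16.4 and 8.73 CPM in mature libraries (log2 fold change -1.42 ± 0.41 SE, edgeR adjusted p = 0.0195). As for Cxcl1, Cxcl2 and Cxcl10, immature replicate 1 was highest and immature replicate 3 lowest, and the call of Nfkbiz was lost without immature replicate 1 or mature replicate 4. Tnfaip3, a negative regulator of NF-kappa B, and Tnf, chosen after their values were seen, had the same order, with 147, 80.5 and 51.5 CPM and with 19.2, 16.4 and 8.65 CPM. Nfkbia, Zfp36 and Il1a, among other genes of the lists, had this order too. Cxcl3, Cxcl14 and Cxcl16 did not share it, and their immature values differed by 1.02-fold, 1.15-fold and 1.09-fold from lowest to highest. Cxcl5, Cxcl9, Il1b (21.7, 21 and 33.9 CPM) and Il6 (17.8, 14.4 and 15.1 CPM) had other orders. How often the 3 libraries take this order over all genes was not tested.

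**Figure D3:**
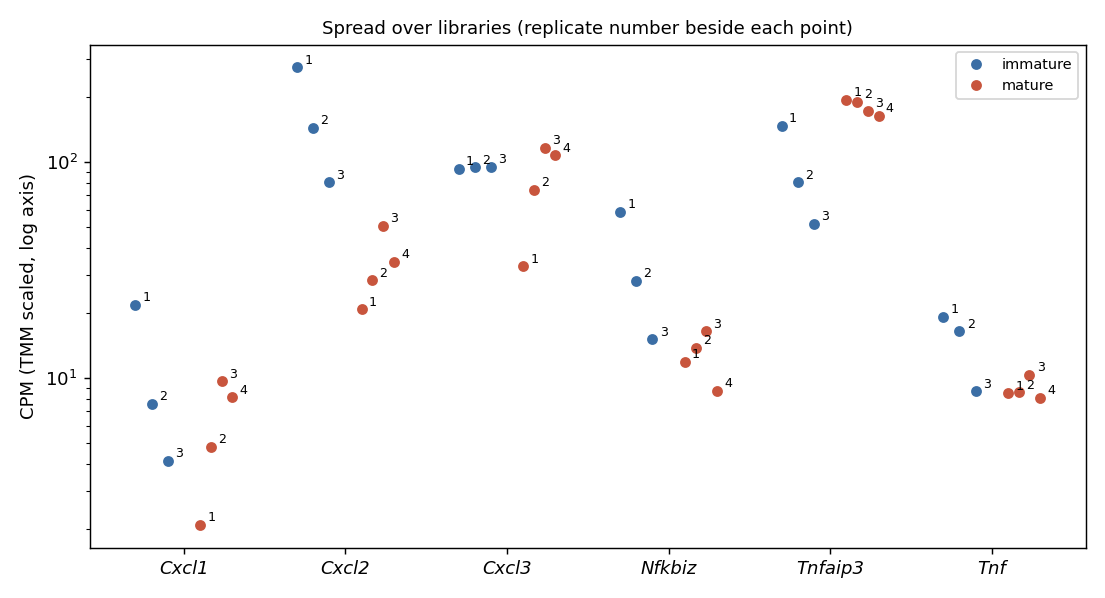
CPM (y axis, log scale) of 3 ELR ligands and of Nfkbiz, Tnfaip3 and Tnf in immature (blue) and mature (red) libraries, with the replicate number beside each point. Immature replicate 1 is the highest immature library for Cxcl1, Cxcl2, Nfkbiz, Tnfaip3 and Tnf, while the 3 immature libraries of Cxcl3 lie between 93 and 94.8 CPM.

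Cxcl10 and Cxcl9 were both low. Cxcl10 was at 6.56, 4.13 and 3.08 CPM in immature and 3.44, 2.12, 2.50 and 4.05 CPM in mature cells. The groups overlapped, and the log2 fold change was -0.60 ± 0.32 (SE, edgeR adjusted p = 0.153, 95% interval -1.32 to 0.12), an interval without a rise of 1 or more. Cxcl9 had 0, 3 and 16 counts in immature and 16, 34, 32 and 37 counts in mature libraries. Only through the mature libraries did it pass the filter on low counts. At this depth its log2 fold change of 2.23 ± 0.97 (SE) did not pass (edgeR adjusted p = 0.0935). It did pass in DESeq2 (2.28, adjusted p = 0.0465) and in edgeR without immature replicate 3 (4.10, adjusted p = 0.0237).

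The ratio of Cxcl10 to Cxcl9 differed by -1.41 on the log2 scale (exact permutation p = 0.114) and the groups overlapped. Cxcl9 was at most at 0.06 FPKM in immature and 0.18 FPKM in mature libraries. The added 0.1 therefore bears on the size of this difference, which was -2.26 with CPM. Cxcl11, the third Cxcr3 ligand, had 0 counts in all immature libraries and 9, 4, 3 and 2 in mature ones, and was removed by the filter. Cxcr3 itself was also removed by the filter, with at most 0.181 CPM.

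Cxcl14 showed the largest fall among the 8 ligands. It was at 3.77, 4.28 and 4.32 CPM in immature and 0.379, 0.287, 0.624 and 0.448 CPM in mature cells, the latter from 19 to 33 counts. All mature libraries lay below all immature libraries, and the mean was 9.49-fold higher in immature cells. The log2 fold change was -3.25 ± 0.29 (SE, edgeR adjusted p = 2.9e-05).

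The falls of Cxcl2, Cxcl14, Ppbp and Pf4 stood beside falls of macrophage markers. All 6 macrophage genes, among them Csf1r, the receptor for M-CSF, and Mrc1, the mannose receptor, were called lower, against 9.95% of all genes. They summed to 367 to 389 FPKM in immature and 82.6 to 112 FPKM in mature cells. Over immature replicates 1, 2 and 3 the sum was 389, 369 and 367 FPKM, where Cxcl2 was at 273, 144 and 80.4 CPM. None of them was at 0 in any library. Neutrophil markers summed to 4.1 to 5.9 and 1.96 to 3.76 FPKM over the 9 of 10 that were in the table, with Ly6g at most at 0.42 FPKM. The part of macrophage-type cells in these falls was not tested.

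Cxcl16, the transmembrane ligand, rose. It was at 169, 174 and 185 CPM in immature and 461, 437, 565 and 447 CPM in mature cells. No library of a group came near the other group, and the mean was 2.71-fold higher in mature cells, 477 ± 59.1 (SD, n = 4) against 176 ± 8.17 CPM (SD, n = 3). The log2 fold change was 1.44 ± 0.11 (SE, edgeR adjusted p = 1.1e-05). Within libraries, the log2 ratio of Cxcl14 to Cxcl16 was -4.70 to -4.56 in immature and -9.16 to -8.73 in mature cells, and that of Cxcl16 to Cxcl2 was -1.24 to 0.66 and 2.93 to 3.91. Both reached p = 0.0571 in the exact permutation test, again the smallest possible.

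Of the enzymes that process these ligands, Adam10, the constitutive sheddase of Cxcl16, fell from 276 to 303 CPM in immature cells to 63.9 to 106 CPM in mature cells (log2 fold change -1.65 ± 0.17 SE, edgeR adjusted p = 6.1e-05). Adam17, an inducible sheddase, went from 140 to 149 CPM to 76.8 to 101 CPM and missed the fold criterion (-0.64 ± 0.10 SE, edgeR adjusted p = 0.00113). Dpp4, a peptidase that trims the amino terminus of Cxcl10 and other chemokines, rose from 32.5 to 34.6 CPM to 89.6 to 135 CPM (1.79 ± 0.14 SE, edgeR adjusted p = 1.3e-05). Zfp36 and Zc3h12a, which promote decay of chemokine and cytokine mRNAs, were not called, with log2 fold changes of 0.24 and 0.03.

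On the FPKM scale, which divides by gene length and so allows levels of different genes to be compared, the order of the ligands differed between the groups. In immature cells Cxcl2 was first with 70.9 ± 42.6 FPKM (SD, n = 3), but its range overlapped that of Cxcl16 at 51.3 ± 1.46 FPKM. Cxcl3 followed at 23.6 ± 0.48 FPKM, below both. Cxcl1 at 5.25 FPKM overlapped Cxcl14 at 1.98, and Cxcl14 overlapped Cxcl10 at 1.78. Cxcl5 and Cxcl9 were lowest, at 0.313 and 0.0267 FPKM, without overlap.

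In mature cells Cxcl16 was first with 149 ± 11.1 FPKM (SD, n = 4), clear of every other ligand. Cxcl3 at 22.1 ± 9.59 FPKM and Cxcl2 at 15.1 ± 4.97 FPKM overlapped each other. Below them came Cxcl1 at 3.06, Cxcl10 at 1.26 and Cxcl5 at 0.738 FPKM, each overlapping the next, and then Cxcl14 at 0.215 and Cxcl9 at 0.148 FPKM, which also overlapped. The FPKM of the 8 ligands summed to 205, 146 and 114 in immature and to 169, 182, 223 and 194 in mature libraries. Cxcl16 made up 24.2% to 45.9% of the sum in immature and 73% to 87.1% in mature libraries, and Cxcl2 made up 29.1% to 57% and 5.73% to 9.67%. The sums overlapped, whereas the shares of both ligands did not.

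**Figure D4:**
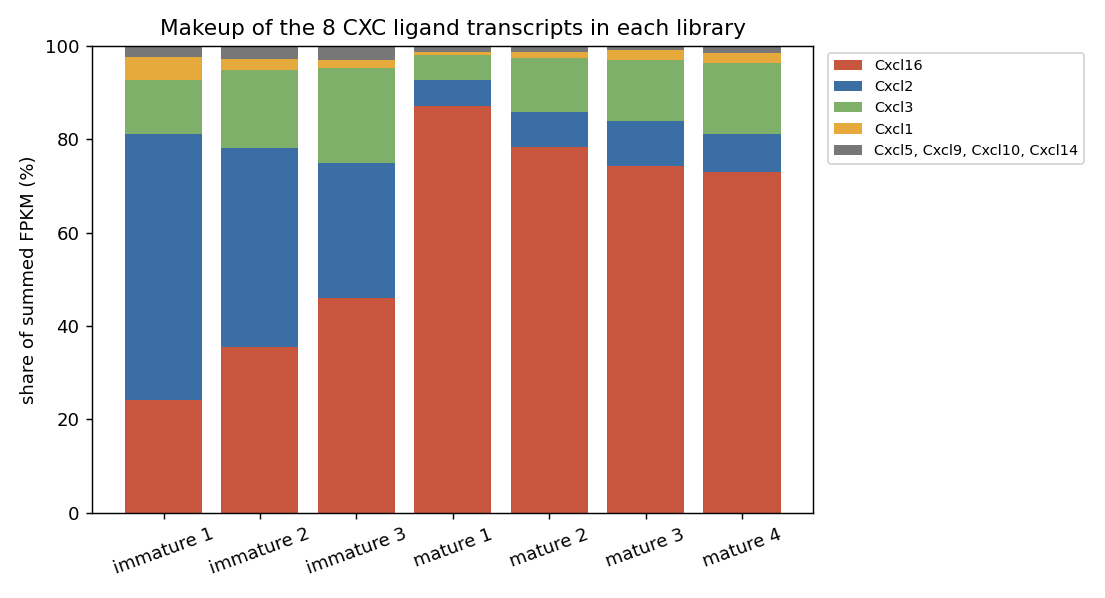
Share of each ligand in the summed FPKM of the 8 CXC ligands (y axis, percent) in each library, with the 4 lowest ligands drawn together. Cxcl16 holds 73% to 87.1% in the mature libraries and 24.2% to 45.9% in the immature ones, where Cxcl2 holds 29.1% to 57%.

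Other ligands of the CXC, CX3C and XC families gave 3 higher and 2 lower among 5 tested, of 9 listed, against 13.2% called higher and 9.95% lower over all genes. Cxcl12 and Cxcl13 passed the filter on low counts only through the mature libraries. They could thus be called higher or not called, and the counts are no test against these shares. Cx3cl1, which like Cxcl16 is membrane-anchored and cut by Adam10, was at 17.9 to 20.2 CPM in immature and 200 to 217 CPM in mature cells (log2 fold change 3.46 ± 0.087 SE, edgeR adjusted p = 1.3e-07). Cxcl12, the ligand of Cxcr4, had 0, 7 and 0 counts in immature and 30, 270, 163 and 195 counts in mature libraries (6.00 ± 1.2 SE, edgeR adjusted p = 0.00311). The size of this value rests on the 7 counts of immature replicate 2, without which the fit gave 10.37 and, against a floor of 3 counts per immature library, the mean was at least 55-fold higher in mature cells. Cxcl13, the ligand of Cxcr5, had 0 counts in all immature libraries and 0, 34, 21 and 20 in mature ones. Against a floor of 3 counts per immature library, its mean was at least 6.09-fold higher in mature cells (edgeR adjusted p = 0.0308), although mature replicate 1 had 0 counts.

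Both Cxcl12 and Cxcl13 were thus highest in mature replicates 2, 3 and 4, the libraries with the heart muscle sums of 252 to 269 FPKM. With mature replicate 1 as the only mature library, Cxcl12 did not pass (log2 fold change 3.43, edgeR adjusted p = 0.185). Cxcl13 lost its call when any single immature library was left out (edgeR adjusted p = 0.0691 to 0.0724), and the filter removed it when mature replicate 2, 3 or 4 was left out. Cxcl15 and Cxcl17 had 0 counts in all libraries, and Xcl1 was not analysed here.

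**Figure D5:**
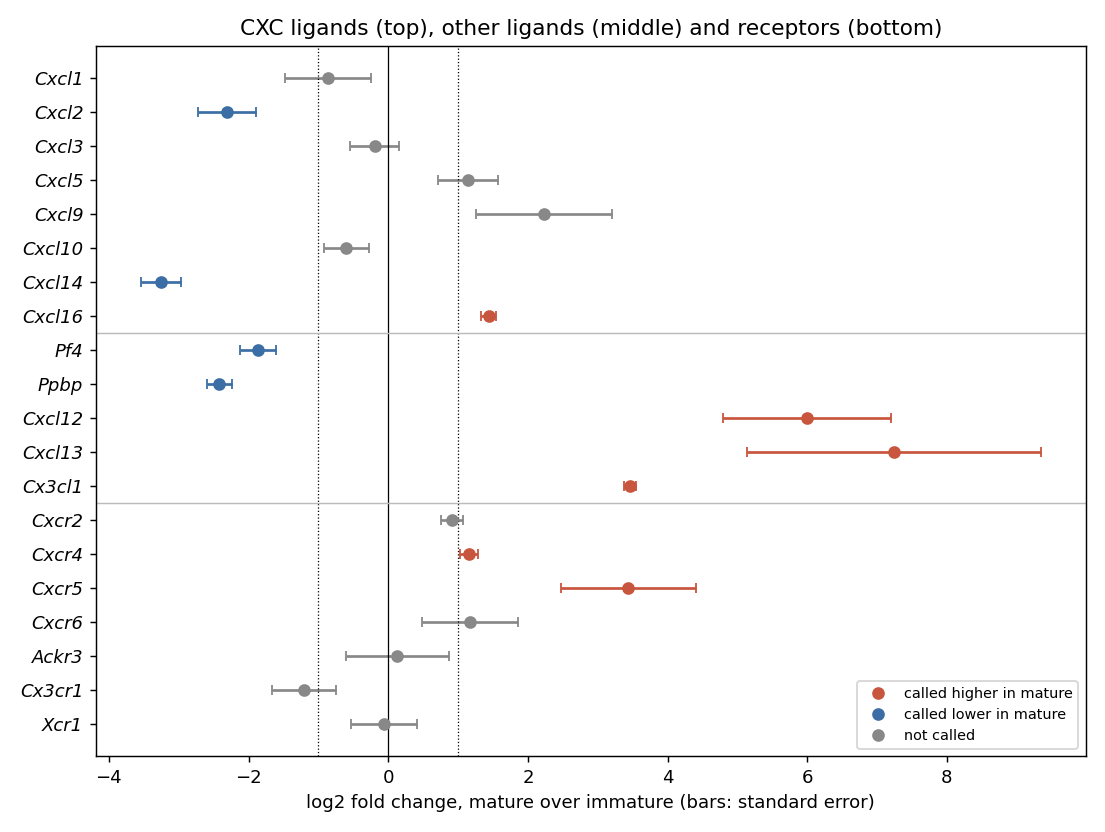
Log2 fold change, mature over immature (x axis, bars are the standard error), of the 8 CXC ligands, of the other ligands tested and of the receptors tested, with red for called higher, blue for called lower, grey for not called and dotted lines at a log2 fold change of 1 in either direction. Cxcl2 and Cxcl14 lie with Pf4 and Ppbp below -1, and Cxcl16 and Cx3cl1 above 1 have short error bars, unlike Cxcl12 and Cxcl13.

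Of 10 receptors, 7 were tested, 2 rose and none fell, against 13.2% higher and 9.95% lower over all genes. Of the 2, Cxcr5 passed the filter only through the mature libraries and could not have been called lower. Cxcr4, which binds Cxcl12, was at 46.3 to 62.4 CPM in immature and 107 to 125 CPM in mature cells (log2 fold change 1.16 ± 0.13 SE, edgeR adjusted p = 9.6e-05). Cxcr5 was low, with 0, 15 and 5 counts in immature and 135, 31, 69 and 77 counts in mature libraries (3.44 ± 0.96 SE, edgeR adjusted p = 0.0174), and its call was lost without immature replicate 3 (adjusted p = 0.0709). Cxcr2, the receptor of the ELR ligands, was at 10.3 to 12.7 and 17.2 to 26.6 CPM without overlap and stayed under the fold criterion (0.91 ± 0.16 SE, edgeR adjusted p = 0.00184). It passed with upper quartile scaling, with library totals and without mature replicate 3 (1.02 in each), and without mature replicates 1 and 3 (1.11).

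Cxcr6, the receptor of Cxcl16, was at most at 1.09 CPM and was not called (log2 fold change 1.17, edgeR adjusted p = 0.198), though it passed without mature replicate 3 (1.53, adjusted p = 0.0229). Ackr3, a scavenger of Cxcl12, was at 1.39 to 1.51 CPM in immature cells, 0.106 CPM in mature replicate 1 and 1.70 to 2.63 CPM in mature replicates 2, 3 and 4 (0.13, edgeR adjusted p = 0.902). Cx3cr1 was not called (-1.21, edgeR adjusted p = 0.0615), but it passed without mature replicate 3 (-1.38, adjusted p = 0.0347). With mature replicate 1 as the only mature library its log2 fold change was -2.51. Xcr1 was not called either (-0.06, edgeR adjusted p = 0.925). Cxcr1, Cxcr3 and Ackr1 were removed by the filter.

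NF-kappa B factors are the best known inducers of the ELR ligands. Of 18 genes of that pathway, 9 rose and 1 fell, and the median log2 fold change was 1.02, where 13.2% of all genes were called higher, 9.95% lower, and their median was 0.05. The largest rises were those of the subunits Relb, from 39.7 to 44.3 CPM to 226 to 324 CPM (log2 fold change 2.63 ± 0.14 SE), Nfkb2 (2.34 ± 0.083 SE) and Rel (2.17 ± 0.17 SE), whereas Nfkbiz fell as described. The other 8 genes were not called. Of the list's cytokine genes, Il1b was called higher (log2 fold change 1.36), and Tnf (-0.73), Il6 (0.00) and Il1a (-0.51) were not called. The list was thus mixed, and its rises stood beside a fall of Cxcl2 and no call for Cxcl1 and Cxcl3.

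Of 27 interferon genes, 25 were tested, 4 rose and 1 fell, with a median of 0.49. With 13.2% of all genes called higher and 9.95% lower, the number that rose is near the background. Mx1, an antiviral GTPase (2.57 ± 0.13 SE), Gbp5, a guanylate-binding protein (2.16 ± 0.11 SE), and Irf8, a transcription factor of dendritic cells (2.11 ± 0.082 SE), rose most. Ifngr1, a chain of the interferon gamma receptor, fell from 156 to 162 CPM to 74.4 to 85.5 CPM, and its log2 fold change of -1.0 ± 0.076 (SE) lay at the fold criterion, so that its call was lost in DESeq2 and other fits. Ifnb1 and Ifng were removed by the filter, with at most 0.0453 and 0.132 CPM.

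The genes most like each ligand over the 7 libraries were named by Pearson's r of log2 CPM among 11322 genes, as a description. For Cxcl16 they were AW112010, Stap2 and Tspan3 (r = 0.9998 to 0.9994), and for Cxcl14 they were Alox5ap, Spint1 and Clec10a (r = 0.9997 to 0.9989); both ligands differ between the groups in every library. For Cxcl2 they were Trib1, Rhob and Dolpp1 (r = 0.9798 to 0.9760), and for Cxcl3 they were Macrod1, Adnp and Pdpn (r = 0.9798 to 0.9685). Cxcl1 was most like Gm14567, Cd69 and Meak7 (r = 0.9461 to 0.9137) and Cxcl10 most like Timm29, Cnep1r1 and Gmip (r = 0.9445 to 0.8997). The points share libraries and depth.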

How the data were processed

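For each gene and library the authors deposited whole-number counts, without normalization, and FPKM values, which scale fragments by gene length and library total. The submitters' processing notes name cutadapt 1.9, HISAT2 2.2.1, StringTie 2.1.6, DESeq2, edgeR and build mm9, but the coordinates in the table overlap those of GENCODE M21 on GRCm38 for 27600 of 28588 shared gene IDs. Libraries were stranded; the strand setting of the counting was not given in the sources used here. The sample labels gave the groups and the replicate numbers.

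All 7 libraries entered a quasi-likelihood fit of the counts by edgeR 4.0.16 (R 4.3.3), after filtering on low counts and TMM scaling, with Benjamini-Hochberg adjustment. A standard error is the log2 fold change divided by the square root of F. Criteria were a log2 fold change of 1 and an adjusted p of 0.05, as in the study. The script was tested on simulated data. Alternatives were no filter, DESeq2 1.42.0, upper quartile scaling, library totals, limma 3.58.1 on log2(FPKM + 1) and log2(FPKM + 0.1), omission of each library and a replicate block. The 2 alternatives added after seeing the data omitted mature replicates 1 and 3, or kept mature replicate 1 alone. Python 3.11.15 drew figures (matplotlib 3.10.9).

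The ligands, gene lists and marker lists were chosen with earlier results of these data known. Named genes are all ligands, other ligands, receptors, processing and mRNA decay genes, at most 4 genes called with the largest or smallest changes in the NF-kappa B and interferon lists, and the 3 genes most like each ligand with a mean FPKM of at least 1. Tnfaip3, Tnf, Nfkbia, Il1b, Il6 and Il1a fall outside this rule and were chosen after their values were seen. T cell, B cell and mast cell markers summed to at most 0.8, 0.42 and 0.54 FPKM, and epithelial and tumor cell markers to 17.2 to 21.3 FPKM in immature and 13.8 to 21.6 FPKM in mature libraries.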

Additional observations from a re-analysis of the deposited data

How the results depend on the processing

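The fall of Cxcl2 and Cxcl14 and the rise of Cxcl16 kept their direction and their call in all 16 alternative fits of each, with log2 fold changes of -2.97 to -1.76, -3.46 to -1.29 and 1.35 to 1.55, and the rise of Cx3cl1 and the falls of Pf4 and Ppbp also kept theirs. The number of ligands called higher, 1, was 3 in DESeq2 (Cxcl5 1.16, Cxcl9 2.28), 2 with upper quartile scaling (Cxcl5 1.25), 2 with library totals (Cxcl5 1.24), 2 without mature replicates 1 and 3 (Cxcl5 1.53), and 1 to 2 when single libraries were left out (2 without immature replicate 3, mature replicate 1 or mature replicate 3). Upper quartile scaling and library totals moved the median log2 fold change of all genes from 0.0546 to 0.165 and 0.159. When single libraries were left out, Cxcl5 ranged from 0.96 to 1.39, Cxcl9 from 1.66 to 4.10, Cxcl1 from -1.26 to 0.06 and Cxcl3 from -0.37 to 0.08; Cxcl1 changed sign without immature replicate 1 and Cxcl3 without mature replicate 1. With mature replicate 1 alone, Cxcl3 was -1.50. In that fit the lone library is assumed to vary like the immature ones, so its calls measure no spread between mature libraries.

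Whether same-numbered libraries were paired was not given in the sources used here. Their deviations from the group means correlated by 0.0285, -0.00114 and 0.0144. Those of differently numbered libraries correlated by -0.0484 to 0.036, so these values cannot decide the pairing. With a replicate block, 1 ligand was called higher and 2 lower, as without it, Cxcr5 lost its call (adjusted p = 0.0747) and Ackr3 changed sign to -0.49. Ackr3 ranged from -0.20 (without mature replicate 3) to 0.52 without single libraries and was -3.71 with mature replicate 1 alone. Xcr1, -0.06, was 0.05 with upper quartile scaling, 0.03 with library totals and ranged from -0.30 to 0.17 without single libraries (0.17 without immature replicate 3, 0.09 without mature replicate 2). The 1 gene of the NF-kappa B list called lower became 0 in both limma fits and with the replicate block, 2 with the adjusted p alone, and 0 to 2 without single libraries. For interferon genes, the adjusted p alone gave 12 higher (4 with both criteria) and 4 lower, and the 1 called lower became 0 without the filter, in DESeq2, with upper quartile scaling, with library totals, in both limma fits and with mature replicate 1 alone, and 0 to 1 without single libraries. The cause of these changes was not tested. Cxcl5 rested on 30 to 132 counts and Cxcl9 on 0 to 37 counts per library. Ratios within libraries kept their sign in every alternative, but with 3 against 4 libraries their test cannot reach 0.05.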
